A study of Mus musculus with 19 samples.

Results

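A set of 9 interferon-inducible genes was followed across the series: Gbp2, Gbp2b, Gbp3, Cxcl10, Isg15, Ifit2, Bst2, Oasl2 and Irf1. They were chosen by name, as interferon-inducible genes whose intensities and detection p-values in the 4 groups were already known, and so with their changes under tamoxifen in view. All probes annotated to them were read, which gave 18 probes for 9 genes, of 25697 probes for 16590 named genes on the array. A probe was kept where 3 or more of the 19 arrays gave a detection p-value below 0.01. Of the 18 probes 15 passed, and each of the 9 genes kept at least 1. The 9 genes are part of the 9422 features tested.

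Total RNA of mouse cells was measured on Illumina bead arrays in 4 groups of 3 samples each. The groups were epiblast-like cells (EpiLC) given tamoxifen at 1 µM for 36 h to induce a knockout of Foxd3, EpiLC given ethanol, embryonic stem cells (ESC) given the same tamoxifen treatment, and ESC given ethanol. EpiLC model the epiblast just after naive pluripotency, and Foxd3 is a forkhead transcription factor. All cells were grown in serum medium, and the ESC also received Lif and the 2 inhibitors of 2i, so the cell types also differ in medium. The ethanol samples stand as wild type in the labels, which give neither the allele, the recombinase nor the number of clones. The tamoxifen groups therefore differ from the ethanol groups in both the drug and the deletion, and these cannot be told apart.

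Interferons are secreted by cells that sense viral nucleic acid. Their receptors activate Jak kinases and STAT transcription factors, which enter the nucleus and switch on a set of interferon-stimulated genes, among them the transcription factor Irf1, which binds many of the same promoters. The products restrict viruses and intracellular microbes and raise antigen presentation. Pluripotent cells are known for a weak response to interferon compared with differentiated cells.

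The promoters of the guanylate-binding proteins, of Isg15 and of Irf1 are shown because these 5 genes were called for a difference between the cell types in their change with tamoxifen. The windows run from 250 bases before to 50 bases after the annotated start, in the direction of the gene, and come from RefSeq on GRCm38.p6. Capitals mark matches to 3 motifs, read on both strands: the interferon-stimulated response element, read as GAAA, any 2 bases and GAAA again, the gamma-activated site TTCNNNGAA bound by STAT factors, and the forkhead core TGTTTAC.
Gbp2, chr3:142620413-142620712, plus strand: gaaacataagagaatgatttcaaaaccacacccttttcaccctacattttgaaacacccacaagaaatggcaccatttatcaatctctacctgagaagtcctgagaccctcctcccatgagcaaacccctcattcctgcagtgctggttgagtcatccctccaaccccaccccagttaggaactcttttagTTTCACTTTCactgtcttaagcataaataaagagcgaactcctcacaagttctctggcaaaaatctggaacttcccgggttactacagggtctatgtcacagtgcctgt
Gbp2b, chr3:142594597-142594896, plus strand: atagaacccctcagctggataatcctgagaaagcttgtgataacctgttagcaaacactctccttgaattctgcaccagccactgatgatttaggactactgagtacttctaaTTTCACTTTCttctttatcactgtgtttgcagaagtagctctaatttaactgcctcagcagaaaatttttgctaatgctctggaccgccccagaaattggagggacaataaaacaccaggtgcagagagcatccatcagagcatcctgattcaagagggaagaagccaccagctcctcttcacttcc
Gbp3, chr3:142559794-142560093, plus strand: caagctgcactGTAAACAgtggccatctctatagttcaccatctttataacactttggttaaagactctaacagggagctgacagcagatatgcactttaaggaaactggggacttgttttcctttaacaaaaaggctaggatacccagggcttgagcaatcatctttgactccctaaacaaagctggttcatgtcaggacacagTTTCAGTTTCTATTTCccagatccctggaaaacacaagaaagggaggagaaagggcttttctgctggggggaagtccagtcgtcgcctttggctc
Isg15, chr4:156200769-156201068, minus strand: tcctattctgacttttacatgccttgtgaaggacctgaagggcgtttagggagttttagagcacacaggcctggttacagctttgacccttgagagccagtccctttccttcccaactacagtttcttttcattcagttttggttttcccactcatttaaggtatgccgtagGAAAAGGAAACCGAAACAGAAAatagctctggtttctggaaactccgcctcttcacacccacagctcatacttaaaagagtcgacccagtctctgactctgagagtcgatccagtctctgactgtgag
Irf1, chr11:53769764-53770063, plus strand: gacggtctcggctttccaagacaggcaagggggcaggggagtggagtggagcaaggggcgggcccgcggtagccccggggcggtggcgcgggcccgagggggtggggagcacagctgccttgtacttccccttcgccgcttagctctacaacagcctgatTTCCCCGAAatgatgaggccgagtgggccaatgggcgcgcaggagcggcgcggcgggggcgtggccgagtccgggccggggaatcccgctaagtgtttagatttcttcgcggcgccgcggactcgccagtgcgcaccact

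In Gbp2 and in Gbp2b the response element lay on the opposite strand, as TTTCACTTTC, starting 59 bases upstream of the start in Gbp2 and 137 bases upstream in Gbp2b. Gbp3 had 2 overlapping matches on that strand, at 45 and 39 bases upstream, and the forkhead core at 239 bases. Isg15 had 3 overlapping matches, at 78, 72 and 66 bases. Irf1 had no response element in either of its 2 windows and 1 gamma-activated site, TTCCCCGAA, at 90 bases. Over the 9 genes, which have 12 windows, the response element was found in 6 (the other members are Cxcl10 and Bst2), the gamma-activated site in 3 (Irf1, Ifit2 and Bst2) and the forkhead core in 1 (Gbp3). In Bst2 the gamma-activated site overlapped the response element. Of all 32851 promoter windows, 3.44% held the response element, 8.3% the gamma-activated site and 3.65% the forkhead core. Oasl2 held none of the 3 in its window. Gbp3, Gbp2b and Gbp2 are neighbours in this order on chromosome 3, after Gbp5 and Gbp7.

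Most of the 9 genes were detected in EpiLC and not in ESC, and in EpiLC the level of most of them was higher in tamoxifen than in ethanol, by 1.58-fold to 4.07-fold. On the 8 EpiLC arrays, 7 of the genes were detected on every array and the other two, Cxcl10 and Ifit2, on some. On the 11 ESC arrays, Bst2 and Irf1 were detected on every array and the other 7 genes on none. In bulk RNA, fewer expressing cells and less RNA per cell cannot be told apart.

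**Figure D1:**
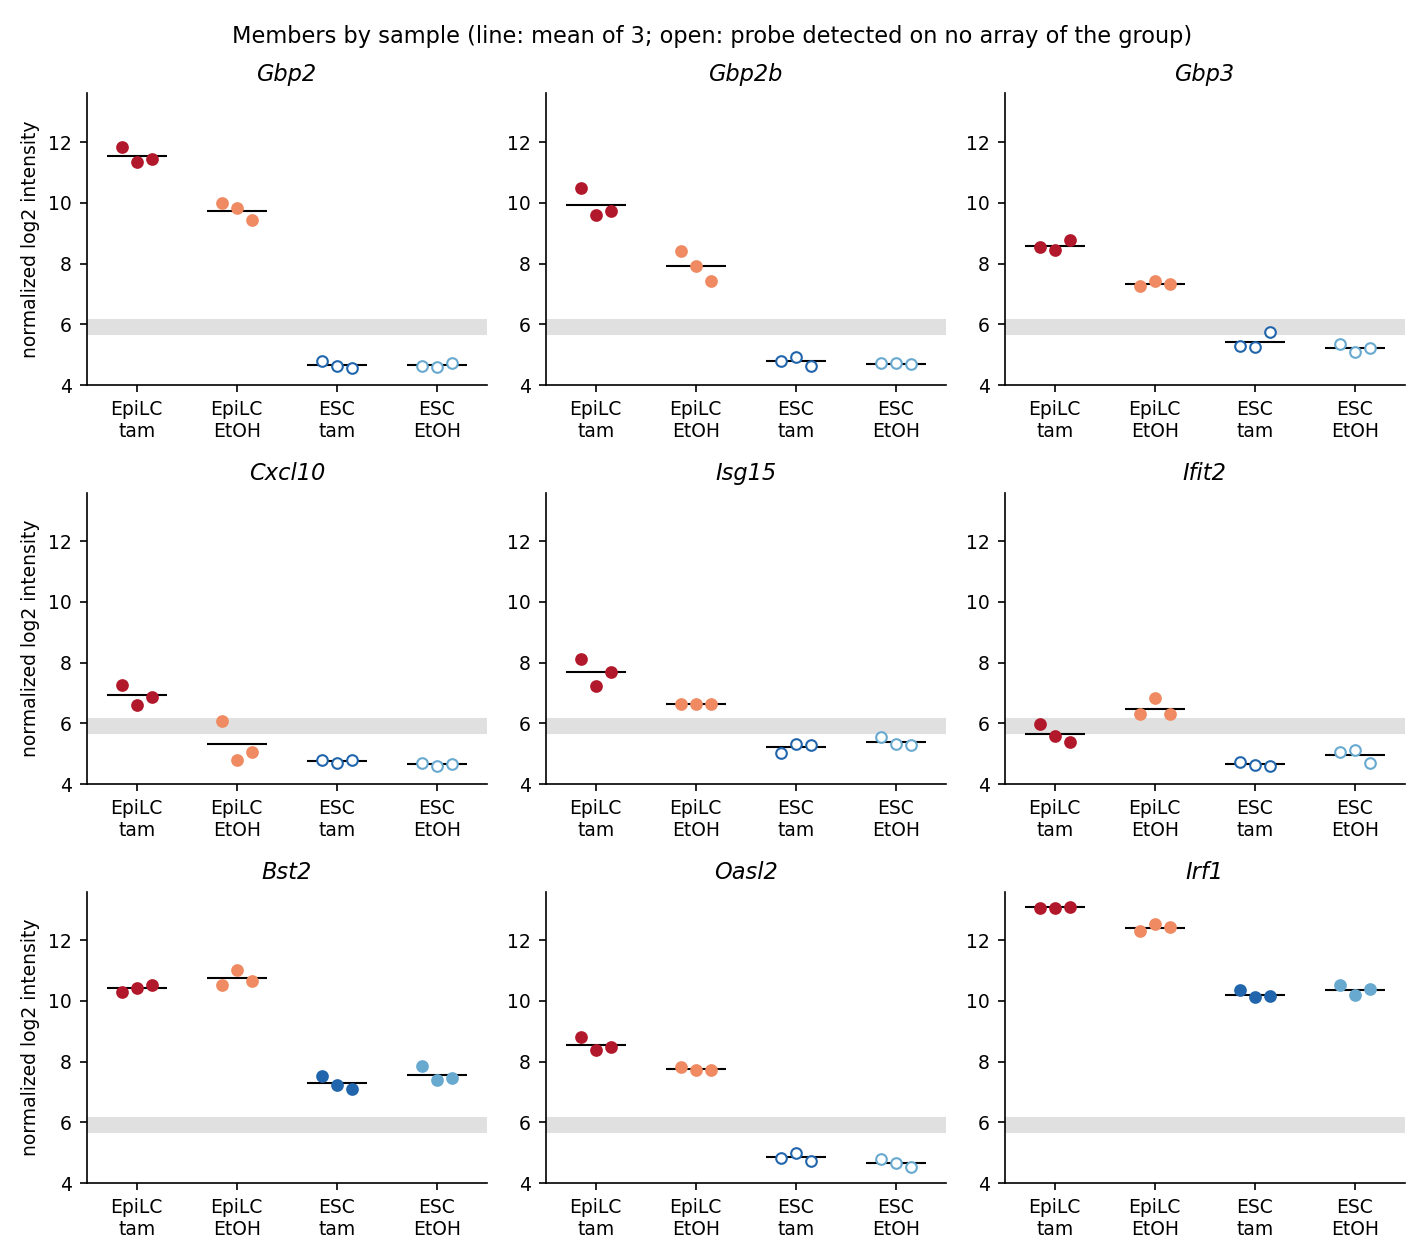
Normalized log2 intensity (vertical axis) of each of the 9 genes in the 12 samples, grouped as EpiLC tamoxifen, EpiLC ethanol, ESC tamoxifen and ESC ethanol; points are samples, lines are means of 3, open points mark groups in which the probe was detected on no array, and the grey band spans the lowest detected signal of the 19 arrays, 5.68 to 6.14. The EpiLC points of Gbp2 lie between 9.44 and 11.83 and its ESC points between 4.58 and 4.81, below the band.

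The arrays themselves were of even quality. Between 10330 and 11481 probes were detected per array, 36 to 39 beads stood behind a probe in the median, and median intensity was 149.2 to 175.9 in hybridization round 1 and 190.3 to 219.7 in round 2. In ESC these followed the treatment: in round 1 the tamoxifen arrays had medians of 165.6 to 175.9 and the ethanol arrays 149.2 to 154.3. Their part in the results was not tested. Of 7 EpiLC markers, 5 were detected in EpiLC and 3 in ESC, and the summed level of the naive ESC markers was at least 41770 in every ESC sample and at most 6408 in every EpiLC sample, as the labels have it. These markers also moved with tamoxifen within EpiLC. The summed naive markers were 4659 to 6408 in EpiLC tamoxifen and 3317 to 4865 in EpiLC ethanol, with 2 of 5 tested genes called higher. The summed EpiLC markers were 28060 to 31720 in EpiLC tamoxifen and 33250 to 34980 in EpiLC ethanol, without overlap. Of 5 tested genes 1 was called higher and 1 lower. The linear sum is weighted to the brightest marker, Dnmt3b, with 14.19, 14.33 and 14.16 in EpiLC tamoxifen, against 14.64, 14.65 and 14.61 in EpiLC ethanol. Fgf5 went the other way, with 11.785, 11.97 and 11.92 against 11.47, 11.35 and 11.50. With sample number as a block, Fgf5 and Otx2 were called higher and Dnmt3b lower. The part of the naive and EpiLC markers in the changes of the 9 genes was not tested. Of 7 immune cell markers on the array, Cd3e alone was detected, and their summed linear level was 198.1 to 214 in EpiLC tamoxifen, 210.3 to 219 in EpiLC ethanol, 258.3 to 272.7 in ESC tamoxifen and 257.7 to 279.7 in ESC ethanol. The other 6 immune markers were detected on no array. Of 9 fibroblast markers, Thy1 and Dcn were detected on every EpiLC array, Pdgfra on some EpiLC tamoxifen arrays and Thy1 alone in ESC. Their summed level was 417.9 to 563.2 in EpiLC tamoxifen and 471.3 to 559.8 in EpiLC ethanol. Of 4 endothelium markers, Pecam1 and Tek were detected in every group. Their sum was 257.6 to 423.1 in EpiLC tamoxifen and 232.2 to 325.4 in EpiLC ethanol. The source of these signals was not tested. Foxd3 has 1 probe, detected on 0 of 19 arrays, so that its loss rests on the labels.

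Levels are given below on the log2 scale after background correction and quantile normalization, 1 value per sample. Changes and standard errors (SE) come from limma over all 9422 features, n = 3 per group. The fit does not pair the samples, except where sample number as a block is named. The intensities in the 4 groups were known when the genes were listed. For these genes all comparisons below, the EpiLC change with tamoxifen among them, are therefore descriptions without a test. Levels of different genes come from different probes and are not set against each other. The labels do not state whether the 3 samples of a group were grown as separate cultures. The p-values therefore rest on a spread that may be technical.

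The guanylate-binding proteins are large GTPases that gather on the vacuoles of intracellular microbes. Gbp2 had levels of 11.83, 11.35 and 11.45 in EpiLC tamoxifen, against 9.99, 9.82 and 9.44 in EpiLC ethanol. In ESC it had 4.81, 4.62 and 4.58 in tamoxifen, against 4.63, 4.59 and 4.74 in ethanol. All EpiLC tamoxifen samples were above all EpiLC ethanol samples, while the ESC groups overlapped and stayed below detection. The EpiLC change was 1.80 (SE 0.15), or 3.47-fold.

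Before any normalization the same order was visible in the deposited intensities of Gbp2. In round 1, EpiLC tamoxifen samples 1, 2 and 3 had intensities of 3329.7, 2581 and 2103, against 980.1, 1033 and 660.0 in EpiLC ethanol. In round 2, tamoxifen samples 2 and 3 had 2899 and 3596. The EpiLC ethanol samples were hybridized in round 1 alone, so the comparison within a round exists there alone. There the change of Gbp2 was 1.88 (SE 0.15), close to the 1.80 over both rounds.

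**Figure D2:**
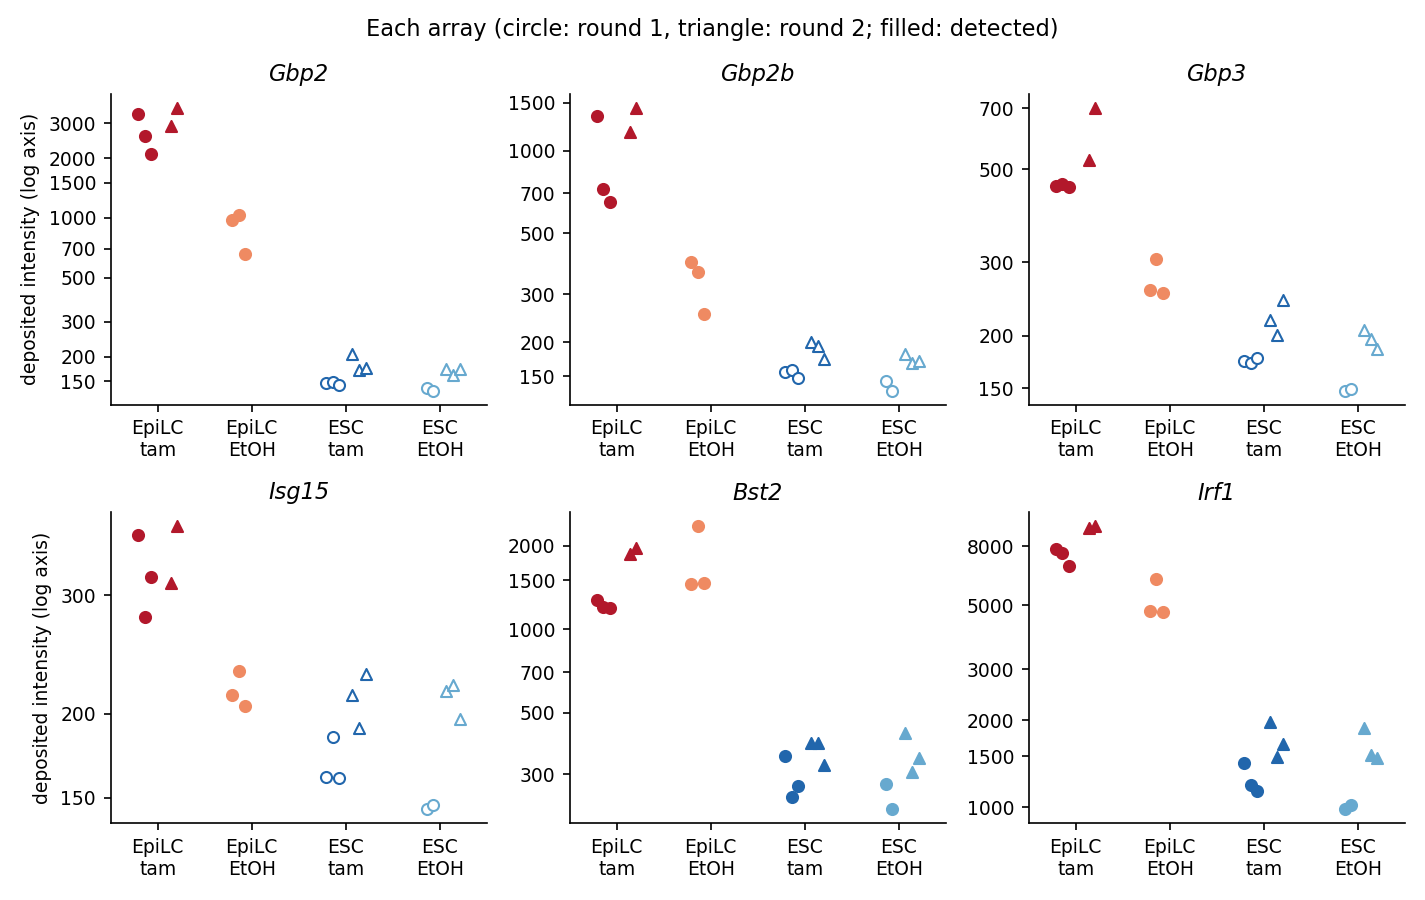
Deposited intensity of 6 of the genes on each of the 19 arrays (vertical axis, log scale), with the 4 groups along the horizontal axis; circles are round 1, triangles round 2, and filled symbols have a detection p-value under 0.01. Within round 1 each EpiLC tamoxifen array lies above each EpiLC ethanol array for Gbp2, where the lowest tamoxifen value is 2103 and the highest ethanol value 1033. In ESC the round 2 arrays are brighter than those of round 1 for each gene shown but Bst2. Its ESC tamoxifen arrays reach 349.1 in round 1 and start at 324.0 in round 2.

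Gbp2 has 2 further probes. One of them was detected on the same 8 EpiLC arrays and changed by 1.66 (SE 0.18) in EpiLC, close to the brighter probe. The other was detected on 0 of 19 arrays.

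Gbp2b, formerly called Gbp1 in mouse, had levels of 10.48, 9.61 and 9.75 in EpiLC tamoxifen, against 8.41, 7.93 and 7.42 in EpiLC ethanol. Its ESC levels were 4.80, 4.93 and 4.62 in tamoxifen, against 4.71, 4.72 and 4.69 in ethanol. Sample 1 was the highest of both EpiLC groups, and the EpiLC groups did not overlap. The change in EpiLC was 2.02 (SE 0.25), or 4.07-fold, the largest of the 9 genes, although its interval of 1 SE overlaps that of Gbp2.

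Gbp3 had 8.55, 8.44 and 8.76 in EpiLC tamoxifen, against 7.26, 7.43 and 7.33 in EpiLC ethanol. In ESC, where it was not detected, it had 5.28, 5.25 and 5.75 in tamoxifen, against 5.37, 5.08 and 5.21 in ethanol. Its samples lay close together within each EpiLC group and far apart between them. The EpiLC change was 1.24 (SE 0.14), or 2.37-fold, and a further probe of the gene changed by 1.28 (SE 0.13). Of the other guanylate-binding proteins on the array, 7 genes including Gbp4, Gbp5 and Gbp7, none was detected on any array.

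Irf1, the transcription factor among the 9, was detected in all samples. Its levels were 13.06, 13.06 and 13.10 in EpiLC tamoxifen, against 12.30, 12.52 and 12.42 in EpiLC ethanol. They were 10.34, 10.12 and 10.16 in ESC tamoxifen, against 10.51, 10.20 and 10.38 in ESC ethanol. The EpiLC groups were separate and the ESC groups overlapped. The change was 0.66 (SE 0.10) in EpiLC, or 1.58-fold, and -0.15 (SE 0.10, adjusted p = 0.394) in ESC.

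The 5 Irf1 probes were also fitted singly, over all 12529 kept probes, a choice made after the data were seen. In EpiLC all 5 changed upward, by 0.47 to 0.84. In ESC the 4 probes detected there changed downward. Probe ILMN_2649067 changed by -0.51 (SE 0.11, adjusted p = 0.0203) and probe ILMN_2599782 by -0.48 (SE 0.12, adjusted p = 0.0344), while 8.21% of all kept probes passed the threshold in this comparison. Probe ILMN_2649068 changed by -0.40 (adjusted p = 0.0615), and the brightest probe, ILMN_2834777, which stands for the gene, by -0.15 (adjusted p = 0.407). The probes thus differ on whether Irf1 passed the test in ESC. With sample number as a block, ILMN_2649068 passed too (adjusted p = 0.0331). After scaling to equal medians none of the 4 passed (adjusted p = 0.083 for ILMN_2649067 and 0.101 for ILMN_2599782), and single ESC samples decided both calls: ILMN_2649067 missed the threshold without ethanol sample 2 or 3 or tamoxifen sample 3 and lay at it without tamoxifen sample 2 (adjusted p = 0.05), and ILMN_2599782 without any ESC sample but ethanol sample 2. For ILMN_2649067 the ESC levels were 6.44, 6.42 and 6.27 in tamoxifen, against 6.69, 6.94 and 7.02 in ethanol, with no overlap. For ILMN_2599782 they were 8.18, 8.18 and 8.23 in tamoxifen, against 8.77, 8.48 and 8.77 in ethanol, also with no overlap.

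**Figure D3:**
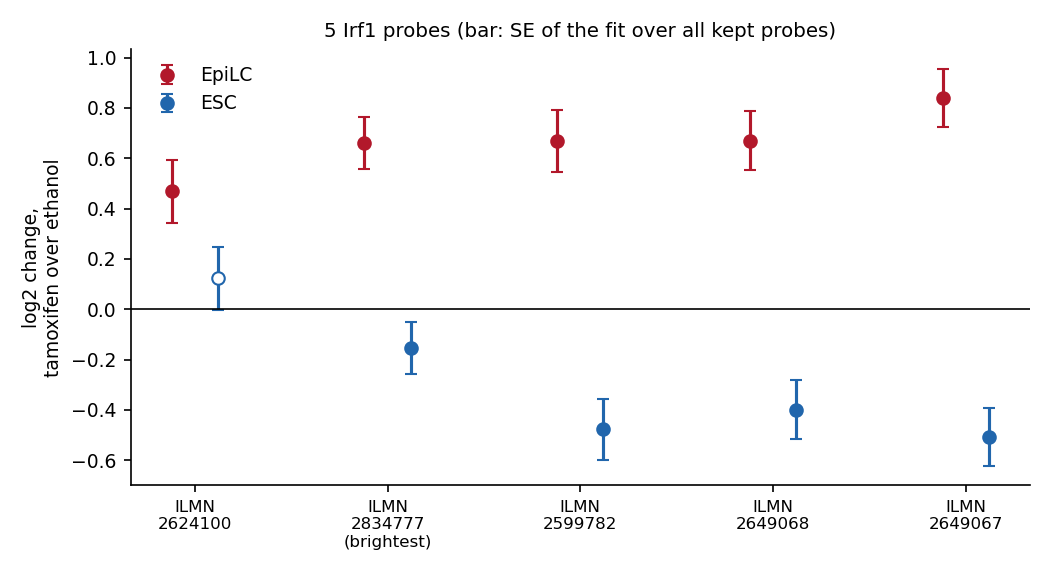
Log2 change with tamoxifen (vertical axis) of the 5 Irf1 probes (horizontal axis) in EpiLC and in ESC; bars are SE of the fit over all kept probes, and the open point marks a probe detected on no ESC array. The EpiLC changes lie between 0.47 and 0.84 and those of the 4 probes detected in ESC between -0.51 and -0.15.

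Cxcl10 encodes a secreted chemokine that attracts T cells through Cxcr3. It had 7.27, 6.62 and 6.88 in EpiLC tamoxifen, against 6.09, 4.81 and 5.06 in EpiLC ethanol. All 5 tamoxifen arrays detected it but 1 of 3 ethanol arrays, that of sample 1, and no ESC array. The change was 1.61 (SE 0.27), the widest error of the 9 genes, and its size depends on the background, since the ethanol mean of 5.32 lies under the lowest detected signal.

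Isg15, a ubiquitin-like protein that is attached to other proteins, had 8.11, 7.23 and 7.71 in EpiLC tamoxifen, against 6.64, 6.64 and 6.63 in EpiLC ethanol. The ethanol samples were nearly identical and the tamoxifen samples spread (SD 0.44, against 0.01 in ethanol). Its change was 1.05 (SE 0.18), or 2.07-fold. In ESC it was not detected, with 5.01, 5.33 and 5.29 in tamoxifen, against 5.56, 5.32 and 5.28 in ethanol.

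Oasl2, of the oligoadenylate synthetase family that senses double-stranded RNA, had 8.80, 8.38 and 8.48 in EpiLC tamoxifen, against 7.82, 7.73 and 7.74 in EpiLC ethanol. The groups did not overlap, and the change was 0.79 (SE 0.12), or 1.73-fold. On the arrays of round 1 alone it was 0.63 and missed the threshold. A further Oasl2 probe was detected on 2 of 19 arrays and was not fitted.

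Ifit2 and Bst2 had the opposite sign. Ifit2, a tetratricopeptide-repeat protein that restricts RNA viruses, had 5.98, 5.58 and 5.40 in EpiLC tamoxifen, against 6.31, 6.83 and 6.30 in EpiLC ethanol. It was detected on 1 of 5 tamoxifen arrays and on 3 of 3 ethanol arrays. The change was -0.83 (SE 0.18), and since the tamoxifen mean of 5.65 lies under the lowest detected signal its size depends on the background. It missed the threshold without ethanol sample 2 or tamoxifen sample 2 or 3. A further Ifit2 probe was detected on 0 of 19 arrays.

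Bst2, also called tetherin, holds budding virus particles at the cell surface. It had 10.30, 10.41 and 10.51 in EpiLC tamoxifen, against 10.53, 11.02 and 10.67 in EpiLC ethanol. In ESC it had 7.53, 7.22 and 7.10 in tamoxifen, against 7.84, 7.40 and 7.47 in ethanol. The EpiLC groups were separated by less than the range within either, and the ESC groups overlapped. The change was -0.33 (SE 0.16) in EpiLC and -0.29 (SE 0.16, adjusted p = 0.305) in ESC, and in neither did it pass the threshold.

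**Figure D4:**
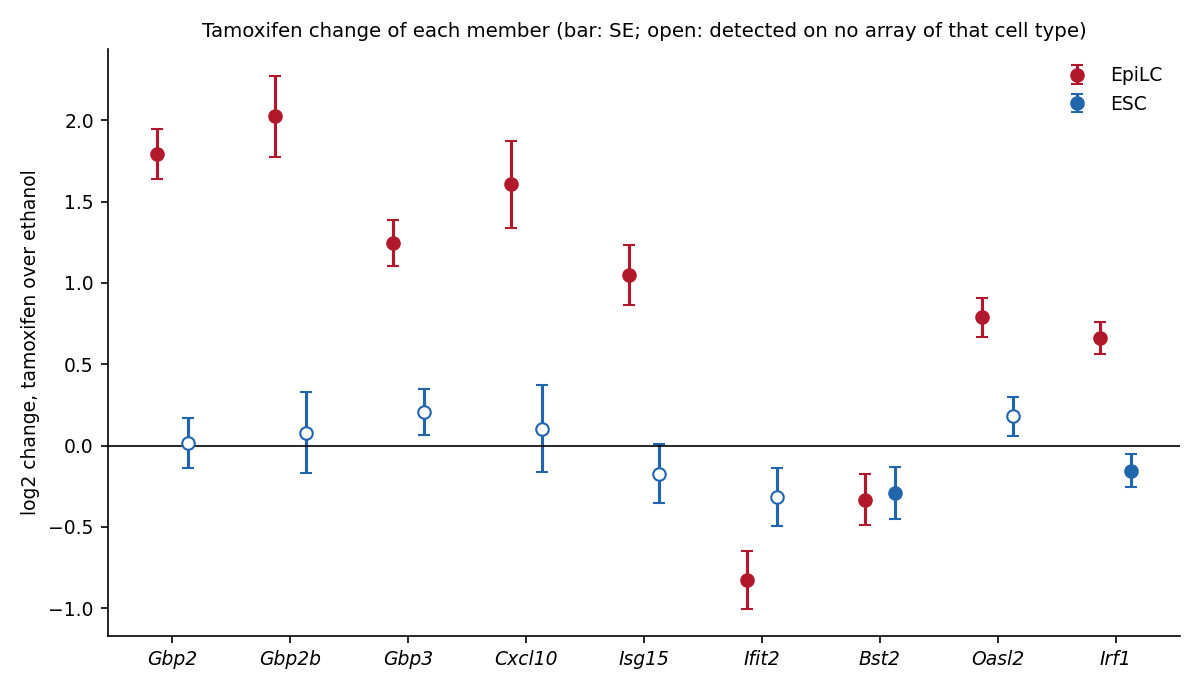
Log2 change with tamoxifen over ethanol (vertical axis) of each of the 9 genes (horizontal axis) in EpiLC and in ESC; bars are SE, and open points mark genes detected on no array of that cell type. In EpiLC the changes run from -0.83 (Ifit2) to 2.02 (Gbp2b), and the ESC changes of the 2 genes detected there are -0.29 (Bst2) and -0.15 (Irf1).

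In EpiLC 7 of the 9 genes were thus called higher in tamoxifen and 1, Ifit2, lower, at a Benjamini-Hochberg adjusted p under 0.05. Of all features 6.91% were called in this comparison, 4.74% higher and 2.17% lower. In all 9 genes the EpiLC groups did not overlap, as in 24.7% of all features. Nothing is read from these counts, since the genes were listed with them known. The 9 genes had a median change of 1.05, against -0.02 over all features. In ESC 0 of 9 genes were called by limma and 0 of 9 had groups without overlap. Over all features in ESC, 9.09% were called and 32.5% had groups without overlap. Of the 9 genes, the 7 not detected in ESC have no level there, so the ESC count bears on Bst2 and Irf1. At an unadjusted p under 0.05 the count in ESC was 0 of 9. Of all 9422 features, 1148 were higher and 1067 lower in ESC at that threshold.

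In ethanol 8 of the 9 genes were called higher in EpiLC than in ESC, all but Cxcl10. Among the genes measured in both cell types, the Bst2 mean was 10.74 ± 0.25 in EpiLC and 7.57 ± 0.24 in ESC (SD, n = 3 each), a difference of 3.17 (SE 0.16), or 8.98-fold. The Irf1 mean was 12.41 ± 0.11 in EpiLC and 10.36 ± 0.15 in ESC, a difference of 2.05 (SE 0.10), or 4.14-fold. For genes not detected in ESC the difference has a lower bound alone, the EpiLC mean over the ESC mean after each ESC array was raised to its lowest detected signal. In ethanol Gbp2 was at least 13.5-fold higher in EpiLC, Gbp2b at least 3.68-fold, Oasl2 at least 2.92-fold, Gbp3 at least 2.63-fold, Isg15 at least 1.56-fold and Ifit2 at least 1.30-fold. Cxcl10 allowed no bound above 1. These 7 genes passed the filter on dim probes through EpiLC arrays alone, which favoured a higher level in EpiLC, and nothing is read from their calls. Cxcl10, detected on 1 of 3 EpiLC ethanol arrays, was not called. Of the 9 genes 8 were called higher, as were 29.8% of all features, with 56.3% called in either direction. The levels in both cell types were known when the genes were listed. The calls, those of Bst2 and Irf1 included, are therefore a description without a test. The EpiLC and ESC ethanol samples did not overlap in any of the 9 genes, nor in 62.1% of all features.

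In tamoxifen the comparison was not tested. Gbp2 was at least 52.7-fold higher in EpiLC than in ESC, Gbp2b at least 17.2-fold, Gbp3 at least 6.88-fold, Oasl2 at least 6.30-fold, Isg15 at least 3.64-fold and Cxcl10 at least 2.18-fold. Ifit2, which was not detected on 4 of the 5 EpiLC tamoxifen arrays, allowed no bound above 1. The Irf1 difference was 2.87 in tamoxifen and the Bst2 difference 3.12. For 7 of the genes the order of the group means from high to low was therefore EpiLC tamoxifen, EpiLC ethanol and the ESC groups, and for Ifit2 and Bst2 the first 2 places were exchanged. In all 9 genes the ESC groups were neighbours that overlapped.

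The EpiLC change minus the ESC change, which shares the EpiLC arrays with the values above, was 1.78 (SE 0.22) for Gbp2, 1.95 (SE 0.35) for Gbp2b and 1.04 (SE 0.20) for Gbp3. It was 1.22 (SE 0.26) for Isg15 and 0.82 (SE 0.14) for Irf1. These 5 genes were called higher in that comparison, where 2.59% of all features were called, and 1.41% with a higher change in EpiLC. Of the 5, Irf1 alone was detected in ESC. Its difference holds the known EpiLC change too, so its call is a description without a test. The other 4 passed the filter through EpiLC alone and lay at background in ESC, so their difference is the known EpiLC change minus a value with no level behind it, and nothing is read from these calls. The difference was 1.50 (SE 0.38) for Cxcl10, 0.61 (SE 0.17) for Oasl2, -0.51 (SE 0.25) for Ifit2 and -0.04 (SE 0.22) for Bst2, none of them called. With sample number as a block, within cell type, Cxcl10 and Oasl2 were called too. On the arrays of round 1 alone Gbp2 and Gbp3 were called, and Irf1 (adjusted p = 0.0527), Gbp2b (adjusted p = 0.062) and Isg15 (adjusted p = 0.209) were not. After scaling to equal medians Irf1 was not called in the difference (0.51, adjusted p = 0.134) or in EpiLC (0.47, adjusted p = 0.0515). Leaving out 1 sample at a time kept the calls of Gbp2, Gbp2b and Irf1 in all 12 fits, that of Gbp3 in 7 and that of Isg15 in 2, in which EpiLC tamoxifen sample 1 or 2 was left out. The call of Gbp3 was lost without EpiLC tamoxifen sample 3, ESC tamoxifen sample 1 or 2, or ESC ethanol sample 1 or 3.

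Around these 9 genes, 130 further interferon genes were listed by role, of which 114 are on the array and 52 could be tested. The lists were drawn up with earlier results of these data known. The shares below therefore describe these genes and give no independent test. In EpiLC 11 of the 52 were called higher in tamoxifen and 0 lower by limma (23 higher and 0 lower at an unadjusted p under 0.05), or 21.2%, beside 6.91% of all features, with a median change of 0.26. In ESC 3 were called higher and 1 lower, or 7.69%, beside 9.09% of all features, with a median of 0.01. With sample number as a block, the EpiLC counts were 24 higher, which include the same 11, and 0 lower, and the ESC counts 8 higher and 8 lower. Of all 9422 features, the block fit called 1032 higher and 844 lower in EpiLC, and 1135 higher and 904 lower in ESC. At an unadjusted p under 0.05 without the block, 1113 of the 9422 features were higher and 1004 lower in EpiLC.

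At the top of the pathway little could be measured. Of 8 listed interferon ligands on the array 7, among them Ifnb1, were detected on no array. Of the receptors, kinases and STAT factors 8 were tested and 0 were called by limma in either cell type (1 at an unadjusted p under 0.05 in each). The receptor chain Ifnar1 and the kinase Jak1 were detected on no array. In EpiLC the change was 0.06 (SE 0.17) for the receptor chain Ifnar2, -0.04 (SE 0.10) for Ifngr1 and 0.10 (SE 0.10) for Ifngr2. The kinases Tyk2 and Jak2 and the receptor chain Ifnlr1, named after their values were seen, changed upward, by 0.42 (SE 0.17, adjusted p = 0.177), 0.26 (SE 0.17, adjusted p = 0.42) and 0.25 (SE 0.12, adjusted p = 0.264). With sample number as a block Tyk2 was called (adjusted p = 0.0105). The change was 0.05 (SE 0.18) for Stat2 and -0.13 (SE 0.15) for Irf9, which join in the complex that binds the response element. Over the 8 genes the adjusted p in EpiLC lay between 0.177 (Tyk2) and 0.924 (Stat2). In ESC the largest of these changes was -0.25 for Ifngr1 (SE 0.10, adjusted p = 0.141).

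Of the other interferon regulatory factors 3 were tested and 0 called by limma (1 at an unadjusted p under 0.05 in EpiLC and 2 in ESC). Irf3, which acts downstream of nucleic acid sensors, changed by -0.13 in EpiLC (SE 0.12, adjusted p = 0.606), and Irf7 was detected on no array. With sample number as a block, 2 of the 3 were called higher in EpiLC, Irf2 (0.94, adjusted p = 0.0113) and Irf5, which was detected on no EpiLC array. In ESC that fit called Irf5 higher (0.48, adjusted p = 0.00711) and Irf3 lower (-0.27, adjusted p = 0.0176). Of 7 sensors and adaptors tested, 0 were called by limma in either cell type (2 at an unadjusted p under 0.05 in EpiLC and 0 in ESC). With the block 3 were called higher in EpiLC, Myd88 (0.46, adjusted p = 0.00405), Eif2ak2 (0.49, adjusted p = 0.0213) and Ddx58, which was detected on no EpiLC array, and 1 was called higher and 2 lower in ESC. Genes that the block alone called are named after their values were seen.

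Without the block, the listed interferon genes called higher in EpiLC were effectors and antigen-processing genes. Of 20 other antiviral effectors 7 were called higher (11 with the block). Parp14, an ADP-ribosyltransferase, had 7.44, 7.30 and 7.46 in EpiLC tamoxifen, against 6.47, 6.35 and 6.38 in EpiLC ethanol, a change of 1.00 (SE 0.17, adjusted p = 0.00622). The related Parp12 had 7.54, 7.09 and 6.73 in EpiLC tamoxifen, against 6.19, 6.22 and 5.97 in EpiLC ethanol, a change of 0.99 (SE 0.18, adjusted p = 0.00854). Neither gene's groups overlapped. Ifitm3, a membrane protein that blocks virus entry, changed by 0.59 (adjusted p = 0.00359), and Pml, which builds nuclear bodies, by 0.38 (adjusted p = 0.0131). Ifi27 and Ifi35 were not detected in EpiLC ethanol and were at least 1.27-fold and at least 1.16-fold higher in EpiLC tamoxifen. The adjusted p was 0.00206 for Ifi27 and 0.0221 for Ifi35. Of these 6 genes, Ifi27, Ifitm3, Parp12 and Parp14 were called in each fit that left out 1 of the 6 EpiLC samples. Pml missed the threshold without tamoxifen sample 2 (adjusted p = 0.0528), on round 1 alone (adjusted p = 0.0655), after scaling to equal medians (0.26, adjusted p = 0.139) and with the mean of its kept probes (0.14, adjusted p = 0.503), and Ifi35 without any EpiLC sample but ethanol sample 2 (adjusted p up to 0.069).

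Of 10 antigen-processing genes 4 were called higher in EpiLC (7 with the block). Tap2, one chain of the transporter that carries peptides into the endoplasmic reticulum, had 8.29, 8.01 and 8.17 in EpiLC tamoxifen, against 7.34, 6.85 and 7.07 in EpiLC ethanol, a change of 1.07 (SE 0.15, adjusted p = 0.00248). The other chain, Tap1, had 7.09, 7.62 and 7.23 in EpiLC tamoxifen, against 6.51, 6.41 and 6.69 in EpiLC ethanol, a change of 0.78 (SE 0.18, adjusted p = 0.0249). Both were apart between the EpiLC groups. Tapbp, or tapasin, which loads peptide on MHC class I, changed by 0.76 (adjusted p = 0.007), and Psmb8, an immunoproteasome subunit, by 0.62 (adjusted p = 0.00706). Tap2, Tapbp and Psmb8 were called in each fit that left out 1 EpiLC sample, and Tap1 missed the threshold on round 1 alone and without ethanol sample 1 or 2 or tamoxifen sample 2 or 3 (adjusted p up to 0.0801).

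Tap1 was also called in ESC. There it had 5.95, 6.42 and 5.78 in tamoxifen, against 5.26, 5.03 and 4.95 in ethanol, where it was not detected, with an adjusted p of 0.00615 and at least a 1.04-fold higher level. Tap2 was detected on no ESC array. Igtp, an immunity-related GTPase, was called higher in ESC too, with 5.61, 6.14 and 6.24 in tamoxifen, against 5.43, 5.35 and 5.21 in ethanol, where it was not detected (adjusted p = 0.0162). Lgals9, the lectin galectin-9, was called higher (at least 1.11-fold, adjusted p = 0.0486). Irgm2, a regulator of that GTPase family, was called lower (adjusted p = 0.042) but was detected on no ESC array. Tap1 alone of these was called in each fit that left out 1 ESC sample. Igtp missed the threshold without ethanol sample 3 or tamoxifen sample 2 or 3, and Lgals9 without any ESC sample but ethanol sample 1.

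**Figure D5:**
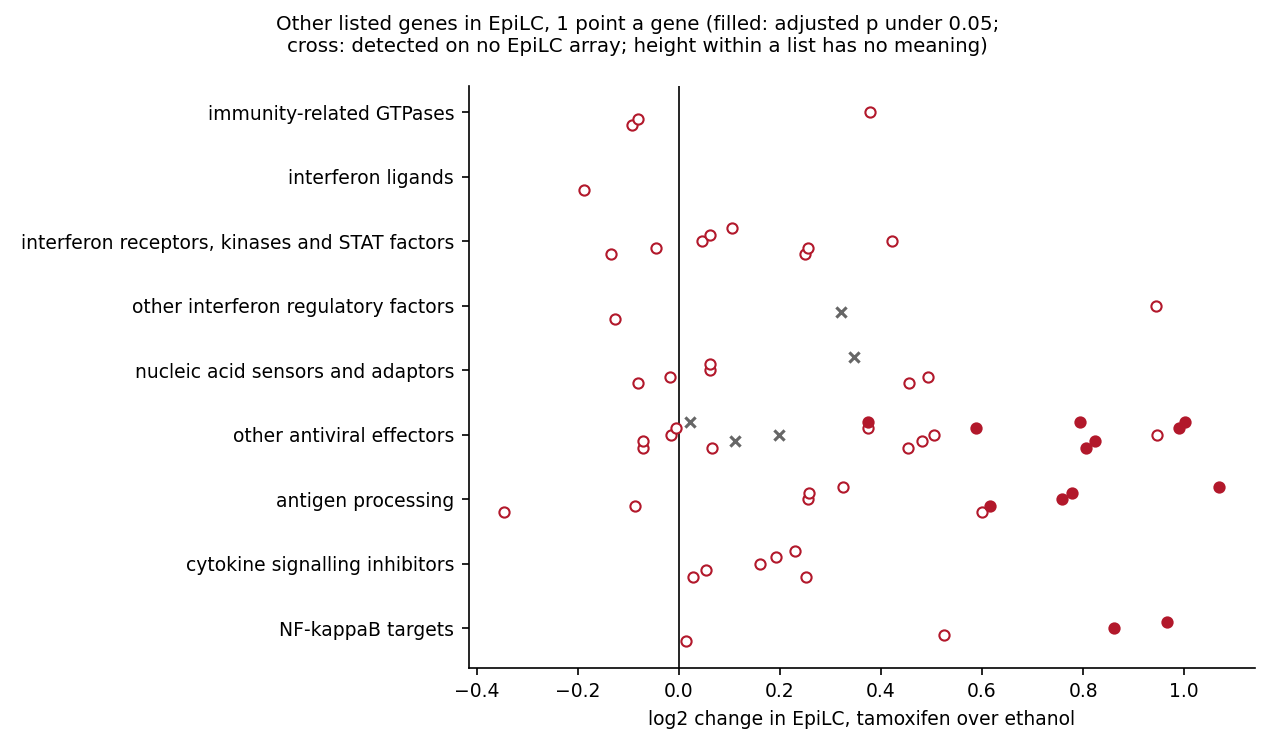
Log2 change with tamoxifen in EpiLC (horizontal axis) of the further listed genes, 1 point a gene, by list (vertical axis); filled points have an adjusted p under 0.05, and crosses mark genes detected on no EpiLC array. The filled points lie among the antiviral effectors (7 of 20), the antigen-processing genes (4 of 10) and the NF-kappaB targets (2 of 4), all to the right of 0, with Tap2 at 1.07 farthest out.

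Across the 12 samples the genes outside the 9 whose levels ran most like those of Gbp2 were Tpm1 (r = 0.996), Car4 (0.995), Igf2 (0.995), Pdlim7 (0.993) and Slc40a1 (0.993). Among the 9 genes r with Gbp2 was highest for Oasl2 (0.996) and Irf1 (0.995) and lowest for Ifit2 (0.763). These Pearson correlations describe 12 points that fall into 2 cell types and carry no test. Car4, a carbonic anhydrase, averaged 12.24 in EpiLC tamoxifen, 11.00 in EpiLC ethanol, 4.76 in ESC tamoxifen and 4.71 in ESC ethanol, the same order of groups as Gbp2.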

How the data were processed

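Total RNA of 12 samples was hybridized to 19 arrays. The deposited raw table holds, per the file headers, the mean bead intensity and a detection p-value per probe and array, with the bead standard error and number. A further table of the authors, with limma named per the submitters' processing notes without a version, holds normalized intensity on a linear scale and was used as an alternative; 10 of its values are below 0. The method of that normalization is not given in the sources used here.

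Raw intensities went through neqc (limma 3.58.1, R 4.3.3), which corrects the background, adds an offset of 16, equalizes quantiles and takes log2. Arrays of 1 sample were joined by a linear model with sample and round as terms. A detection p below 0.01 on 3 or more of the 19 arrays kept a probe (12529 in all). Gene names came from the identifiers of the platform annotation (23962 matched by identifier, 9 by accession, 7 by the platform's symbol, 1719 without a name), and the brightest probe stood for a gene. The 4 groups were fitted together with lmFit and eBayes, with Benjamini-Hochberg adjustment over 9422 features. An exact permutation test of 3 against 3 cannot go below 0.1, and the 12 samples limit the precision. The procedure was tested on simulated data.

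Same-numbered tamoxifen and ethanol samples deviated together from their group means (r = 0.371 to 0.471 in ESC, 0.497 to 0.567 in EpiLC). The numbers were therefore taken to pair the samples in the fits with sample number as a block. The main fit had no such block, so its SE and adjusted p do not use the pairing. The pairing rests on these correlations, since the labels give only a number.

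The 9 genes, the other gene lists and the motifs were chosen with earlier results of these data known. Genes named outside the 9 are mainly the interferon receptors, kinases and transcription factors listed at the start, and the 5 genes most correlated with Gbp2. Genes called in either tamoxifen comparison were also named, at most 6 a list, with Lgals9 added for its call in ESC. Tyk2, Jak2, Ifnlr1 and genes called by the block alone were named after their values were seen. Alternatives covered the block of sample number, scaling, background correction, the authors' table, round, the filter, the probe of a gene and leaving out each sample.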

Additional observations from a re-analysis of the deposited data

Results flagged for a closer look

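Looked at were the 9 genes, the interferon genes named at the start and the further listed genes called in either tamoxifen comparison. In 10 of these the change with tamoxifen in EpiLC differed from that in ESC by limma's test of the difference itself. Over all 9422 features that test called 244, or 2.59%. The further genes entered through calls in the same samples, so nothing is read from the count. Among the 9 listed genes the EpiLC change minus the ESC change was 1.78 for Gbp2, 1.95 for Gbp2b, 1.04 for Gbp3, 1.22 for Isg15 and 0.82 for Irf1 on the log2 scale. These genes were chosen with the EpiLC changes known, and the first 4 of them were detected on no ESC array, so the ESC part of the difference has no level behind it. Among the other listed genes, antigen processing and antiviral effectors gave 3 such differences. The difference was 1.20 for Parp12 (adjusted p = 0.0354), 0.98 for Tap2 (adjusted p = 0.038) and 0.92 for Tapbp (adjusted p = 0.0301). Parp12 and Tap2 were detected on no ESC array.

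The remaining 2 genes were NF-kappaB targets. Nfkbia, the inhibitor of NF-kappaB, had levels of 8.45, 8.11 and 8.59 in EpiLC tamoxifen, against 7.84, 7.59 and 8.15 in EpiLC ethanol, and 8.43, 8.46 and 8.51 in ESC tamoxifen, against 9.30, 8.92 and 9.09 in ESC ethanol. Its difference of changes was 1.16 (adjusted p = 0.021), with opposite signs in the cell types. The EpiLC change was not called in the main fit, where its groups overlapped, but was called with sample number as a block. The ESC change was called in 1 of the 6 fits that left out 1 ESC sample. It was not called after scaling to equal medians or on round 1 alone. The difference was 0.78 for Icam1 (adjusted p = 0.0167), a cell adhesion molecule.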

How the results depend on the processing

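The direction of each of the 9 genes in EpiLC held in every alternative, and 7 to 8 of them were past the threshold; in ESC 0 were past it in every alternative by gene. The count for the difference of the changes was 2 to 7, lowest on round 1 alone. No value that passed the threshold changed sign. Values that did not pass did so in places: the Bst2 difference ran from -0.33 to 0.10 and the EpiLC change of Irf9 from -0.29 to 0.04. The ESC change of Irf1 reached 0.12 with a probe that was detected on no ESC array. Fitted singly, the Irf1 probes detected in ESC changed by -0.51 to -0.15 there. The limits lie in 3 samples a group, in EpiLC ethanol having been hybridized in round 1 alone, in 7 of the 9 genes lying at background in ESC, and in 1 bead type standing for most genes. With the replicate block, the counts of all features called were 2039 in ESC, 1876 in EpiLC and 1147 for the difference (856, 651 and 244 without it), and those of the other listed interferon genes 8 higher and 8 lower in ESC and 24 higher in EpiLC. For EpiLC against ESC in ethanol, same-numbered samples correlated at 0.0599 to 0.253, so they share only a number. On round 1 alone the counts were 403 in ESC, 365 in EpiLC and 82 for the difference, and 1 listed gene was higher and 0 lower in ESC. With the authors' table they were 1064 in EpiLC and 397 for the difference, with 17 listed genes higher in EpiLC. Scaling to equal medians moved the median of all features in the difference by -0.18, with 5 listed genes higher and 0 lower in ESC. That scaling moved the splits of higher against lower to 794 against 120 in ESC (526 against 330 otherwise), 315 against 243 in EpiLC (447 against 204) and 78 against 258 for the difference (133 against 111), and Irf1 lost its call in EpiLC and in the difference. The count of listed genes lower in ESC was 0 without the filter, 2 with detection on every array of a group and 2 with the mean of probes. Leaving out 1 sample at a time gave 523 to 583 features in ESC, 351 to 548 in EpiLC, 108 to 198 for the difference, 1 to 3 listed genes higher and 0 to 1 lower in ESC, and 8 to 11 higher in EpiLC. The cause was not tested.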

Other observations

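Genes next to the interferon pathway, from lists drawn up with earlier results of these data known, also moved. Of 4 NF-kappaB targets tested in EpiLC, 2 were called higher in tamoxifen, beside 6.91% of all features. Icam1 had 8.80, 8.93 and 8.98 in EpiLC tamoxifen, against 7.80, 7.96 and 8.06 in EpiLC ethanol, a change of 0.97 (SE 0.10, adjusted p = 0.000496). Relb, an NF-kappaB subunit, had 7.08, 6.73 and 7.09 in EpiLC tamoxifen, against 6.42, 5.78 and 6.12 in EpiLC ethanol, a change of 0.86 (SE 0.19, adjusted p = 0.0208). Icam1 was called in each fit without 1 EpiLC sample, and Relb missed the threshold without ethanol sample 2 or 3 or tamoxifen sample 1 or 3 (adjusted p up to 0.077). In ESC 1 of the 4 was called, Nfkbia, lower, by limma (adjusted p = 0.0278), at -0.64 (SE 0.16). Of the fits that left out 1 ESC sample, the one without ethanol sample 2 alone called it.

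The inhibitors of cytokine signalling, listed in the same way, were called in ESC and not in EpiLC. Of 6 tested, 3 were called higher in ESC tamoxifen, beside 9.09% of all features, and 0 in EpiLC by limma (0 also at an unadjusted p under 0.05). Cish, which blocks STAT5 signalling, had 7.48, 7.50 and 7.79 in ESC tamoxifen, against 6.71, 6.92 and 6.98 in ESC ethanol, a change of 0.72 (SE 0.14, adjusted p = 0.00718), and was called in each fit without 1 ESC sample. Socs2 changed by 0.73 (SE 0.20, adjusted p = 0.0427) and Pias1 by 0.40 (SE 0.10, adjusted p = 0.029), and both missed the threshold without some single ESC samples: Socs2 without ethanol sample 2 or 3 or tamoxifen sample 1 or 2, and Pias1 without any but ethanol sample 1. The difference between the cell types was tested, and none of the 3 passed (adjusted p = 0.227 for Cish, 0.253 for Socs2 and 0.435 for Pias1).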
